A study of Mus musculus with 6 samples.

Results

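STRAP eCLIP-seq of mouse embryos was set against STRAP eCLIP-seq of embryoid bodies (EBs), to see which transcripts carried STRAP peaks in one tissue and not in the other, and which shared regions differed in level. Both tissues were wild type and C57BL/6. The embryos were whole and pooled, at prenatal day 9.5 by the labels (a legend of the study gives a slightly earlier day), and thus hold blood, heart, neural tube and every other tissue of that stage. The EBs were 9-day-old aggregates grown from embryonic stem cells, in ES medium without LIF and then for 5 days in N2B27 medium with 10 ng/ml bFGF. Each tissue had 2 eCLIP libraries and 1 input library. The MACS peaks of the 4 eCLIP libraries were merged wherever they overlapped by 1 bp or more, which gave 3852 regions, and the peak summits fell in 2381 genes of the Gencode M21 basic annotation on GRCm38. A region or gene was called embryo-only when both embryo eCLIP libraries held a peak and neither EB eCLIP library did, and EB-only in the opposite case. The members were 159 embryo-only and 225 EB-only regions and 127 embryo-only and 213 EB-only genes, together with the 339 regions and 264 genes held by all 4 libraries, in which levels could be compared.

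STRAP is a WD40 repeat protein that was named for its association with TGF-beta receptors. It also binds the SMN complex, which assembles the small nuclear ribonucleoprotein particles of the spliceosome. In eCLIP, UV light crosslinks RNA to the proteins that touch it, an antibody against the protein of interest retrieves the complexes, and the retrieved RNA is sequenced. In whole tissue, more STRAP on a transcript, more copies of the transcript and more cells that express it raise the same tags, and these cannot be told apart here.

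The summit windows below are the first 4 of each tissue-only set, by the lower of their values, whose window lies within 1 coding exon, and they are shown so that the words counted further on can be read in place. Each is 101 nt of GRCm38 around the summit of the eCLIP-1 library, written 5' to 3' on the strand of the gene. The capitals mark the word GAAGAA, its forms GAAGAG or GAGGAA, and the form GAGGAG, purine words that can overlap one another, searched on the strand of the gene only. The windows of the embryo-only regions lie in Peg3 at chr7:6707793-6707893, in Sox11 at chr12:27341576-27341676 and in Marcks at chr10:37136729-37136829, all on the minus strand, and in Hba-x at chr11:32277881-32277981 on the plus strand. Those of the EB-only regions lie in Polr2a at chr11:69734793-69734893 on the minus strand, in Rere at chr4:150614825-150614925 on the plus strand, in Hsp90aa1 at chr12:110695577-110695677 on the minus strand and in Kmt2d at chr15:98864049-98864149 on the minus strand. The last lies in Hnrnpu at chr1:178337143-178337243 on the minus strand, in a region that all 4 libraries held, and was added for the values given further on.
Peg3, embryo-only: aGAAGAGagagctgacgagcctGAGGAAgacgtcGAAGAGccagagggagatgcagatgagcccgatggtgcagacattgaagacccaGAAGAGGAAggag
Sox11, embryo-only: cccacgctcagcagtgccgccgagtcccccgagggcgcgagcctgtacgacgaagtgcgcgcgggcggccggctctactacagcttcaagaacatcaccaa
Marcks, embryo-only: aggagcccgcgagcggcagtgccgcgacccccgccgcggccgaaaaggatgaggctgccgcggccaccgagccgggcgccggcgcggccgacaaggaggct
Hba-x, embryo-only: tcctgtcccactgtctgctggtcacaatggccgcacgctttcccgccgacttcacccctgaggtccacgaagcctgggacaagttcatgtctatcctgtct
Polr2a, EB-only: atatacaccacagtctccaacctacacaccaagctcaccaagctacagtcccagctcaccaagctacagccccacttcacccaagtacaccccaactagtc
Rere, EB-only: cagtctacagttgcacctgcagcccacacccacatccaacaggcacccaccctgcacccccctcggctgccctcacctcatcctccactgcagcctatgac
Hsp90aa1, EB-only: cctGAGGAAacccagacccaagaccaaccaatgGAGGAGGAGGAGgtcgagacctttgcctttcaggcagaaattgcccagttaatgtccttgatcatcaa
Kmt2d, EB-only: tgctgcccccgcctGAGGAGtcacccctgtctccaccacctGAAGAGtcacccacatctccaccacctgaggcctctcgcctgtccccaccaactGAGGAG
Hnrnpu, held by all 4: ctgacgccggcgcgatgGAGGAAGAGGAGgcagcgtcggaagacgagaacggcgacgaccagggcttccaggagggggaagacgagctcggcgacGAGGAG

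The eCLIP libraries held 136935 and 185125 tags in embryos and 165566 and 228422 tags in EBs, after the authors removed duplicates. Peaks of more than 5-fold numbered 1445 and 1307 in embryos and 1254 and 1952 in EBs. The smallest peak of a library had 3 or 4 tags. The share of library tags inside peaks was 13.7% and 11.7% in embryos and 10.5% and 8.73% in EBs. The caller was given a fragment size of 76 bp in EB eCLIP-2 and of 200 bp in the other libraries.

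In the globin and pluripotency lists, marker genes of the eCLIP libraries followed their labels. Of 6 globin and erythroid genes with a peak, 6 had it in embryo libraries only. Of 19 pluripotency genes with a peak, 18 had it in EB libraries only. The 2 endothelial genes with a peak went against the labels, both with a peak in EB eCLIP-2 alone. The embryonic globin Hba-x held 43 and 54 tags over the gene in embryos and no peak in EBs, while the pluripotency factor Nanog held no peak in embryos and 29 and 41 tags over the gene in EBs. The 2 input libraries, in contrast, went against their labels in several lists. Of 42 pluripotency genes, 5 held a peak in the library labelled embryo input, among them Klf2 with 15 tags, Tfcp2l1 with 12 and Esrrb with 10, against 2 in the library labelled EB input. Of 31 imprinted genes, 0 held a peak in the library labelled embryo input and 4 in the library labelled EB input, where H19 had 108 tags and Gnas 31. Of 24 globin and erythroid genes, 0 held a peak in the library labelled embryo input and 2 in the library labelled EB input, where Hba-x had 26 tags. Endothelial genes ran the other way, with 5 of 20 in the library labelled embryo input and 1 in the library labelled EB input. So did muscle genes, with 2 of 35 (Myh7 and Nebl) in the library labelled embryo input and 0 in the library labelled EB input. Embryo-only regions overlapped a peak of the library labelled embryo input in 7 cases and of the library labelled EB input in 17, whereas EB-only regions did so in 11 and 4. These input genes were picked after their values were seen. An input peak is therefore given below only as a flag, for a peak in either library, which does not depend on which input is which.

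Regions held by both libraries of a tissue alone were more frequent than those held by 1 library of each. Embryo-only regions were 159 of 3852 (4.13%) and EB-only regions were 225 (5.84%). The 4 pairs of 1 embryo and 1 EB library held 38, 52, 40 and 83 regions that no other library held. Among the 2381 genes, 127 (5.33%) were embryo-only and 213 (8.95%) were EB-only, beside 30 to 69 for each mixed pair. Most other regions were held by 1 library, from 487 in EB eCLIP-1 to 1009 in EB eCLIP-2. The median embryo-only region had 5 tags in its lower library and the median EB-only region had 6, and 33 embryo-only and 70 EB-only regions had at least 10 tags in both libraries. A list names only what passed the caller, so the other tissue is given as holding no peak and never as 0, and no fold change is given for these regions. With at least 10 tags asked of every peak, 89 regions were embryo-only and 74 were EB-only, which turns the order of the tissues.

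**Figure D1:**
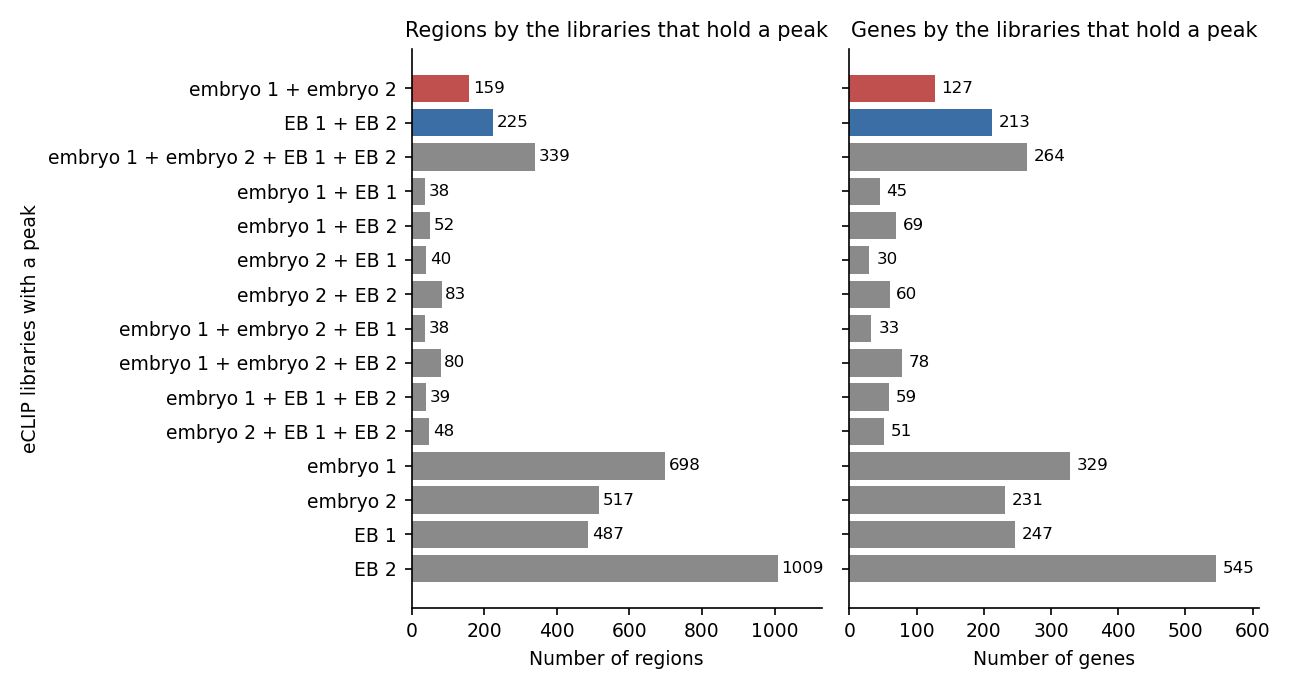
Number of merged regions (left panel) and genes (right panel), on the x axes, for each combination of eCLIP libraries that held a peak, on the y axis. The embryo-only bars (159 regions, 127 genes) and the EB-only bars (225 regions, 213 genes) are longer than those of the 4 mixed pairs of libraries.

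The 4 highest embryo-only regions lay at the Igf2 locus, in Peg3 and in Sox11. Levels are given as tags per 100000 tags of the library. The highest was in the 3' UTR of Igf2, a fetal growth factor, at chr7:142650852-142654561, where the overlapping gene model Gm49394 shares the position. It held 67.2 in the first embryo library and 50.2 in the second, and values are given in that order below. A further region at the same locus, in an intron of Gm49394, held 28.5 and 30.2. Peg3, an imprinted zinc finger gene, held 48.9 and 40.5 in its last exon, at chr7:6706758-6710711, where the printed window consists of 74.3% G or A. Sox11, a transcription factor of neural progenitors, held 51.1 and 38.9 over its single exon at chr12:27340573-27342813. The EB libraries held no peak at any of these 4 regions.

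Further down the same order were Chd4, Marcks, Hba-x and Basp1, each in a coding exon. Chd4, the ATPase of the NuRD remodelling complex, held 38.0 and 23.8 over a region with its summit in exon 5 of 39. Marcks, an actin-binding substrate of protein kinase C, held 36.5 and 21.6. Hba-x held 18.99 and 19.4 over a region with its main summit in exon 2 of 3, outside the window printed above around the eCLIP-1 summit. Basp1, a membrane protein of growth cones, held 18.3 and 20.5. The first library was the higher one in Chd4 and Marcks and the lower one in Hba-x and Basp1. Baz1b, a chromatin remodelling factor, followed with 18.99 and 15.7. Nedd4, a ubiquitin ligase, held 14.6 and 15.1 in exon 11 of 29. The last 2 of the 12 lay where genes overlap, in an intron of Blcap that holds Nnat, with 19.7 and 13.5, and in an intron of Arpc1b that holds Pdap1, with 17.5 and 11.3. Peaks carry no strand, so the transcript of origin is not known there. Of these 12 regions, Igf2 (both regions), Sox11, Marcks, Hba-x, Basp1 and Nnat overlapped an input peak and the other 5 did not.

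The highest EB-only regions lay in a noncoding RNA of stem cells, in the mRNA of RNA polymerase II and in introns. Lncenc1, a long noncoding RNA of naive embryonic stem cells, held 180.6 in the first EB library and 146.7 in the second, in its last exon at chr13:97494512-97496443. Polr2a, which encodes the largest subunit of RNA polymerase II, held 106.3 and 70.5 in its last exon at chr11:69734148-69735952. The printed window there encodes heptad repeats of the C-terminal domain, holds none of the searched words and overlapped a peak of both inputs. Rbpj, the DNA-binding effector of Notch signalling, held 90.0 and 58.2 in an intron at chr5:53582233-53584544, 6896 nt from the nearest annotated exon. Neither embryo library held a peak at any of these.

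The other EB-only regions among the 12 highest held 14.9 or more in both libraries. Laptm5, a lysosomal membrane protein of blood cells, held 51.3 and 32.0 in its 3' UTR. Deaf1, a transcription factor, held 27.8 and 28.5 in an intron. Introns also carried the regions of Fkbp9, with 43.5 and 27.6, Arhgap32, with 38.7 and 21.5, Ankrd11, with 27.8 and 21.01, Fads2, with 22.3 and 20.1, and Cryzl1, where Atp5o shares the position, with 18.7 and 15.3. Thus 7 of the 12 EB-only regions were intronic, against 3 of the 12 embryo-only regions. The class is that of the assigned gene. The summits of all 3 embryo-only ones lay inside an exon of the full annotation, and those of the 7 EB-only ones did not. The remaining pair were the 3' UTR of Cdc40, a splicing factor, with 29.6 and 17.5, and the 5' UTR of Mt2, a metallothionein, with 16.3 and 14.9. Only Polr2a of these 12 overlapped an input peak.

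**Figure D2:**
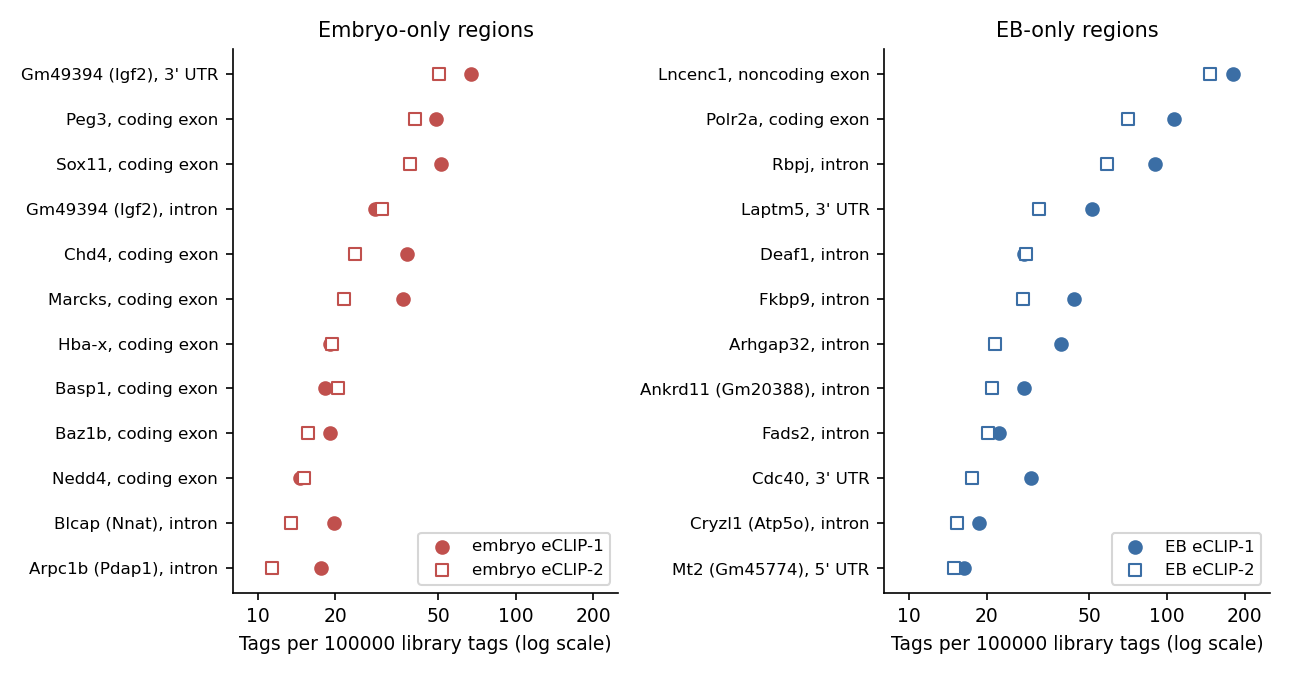
Tags per 100000 library tags (x axes, log scale) of the 12 embryo-only (left panel) and 12 EB-only (right panel) regions with the highest lower value, by gene and genic class; filled circles are eCLIP-1 and open squares eCLIP-2 of that tissue. Names in brackets are genes that share the position, and the values run from 11.3 to 67.2 in embryos and from 14.9 to 180.6 in EBs.

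Embryo-only regions were mostly in coding exons and 5' UTRs, EB-only regions in introns, coding exons and 3' UTRs. Coding exons held 86 of 159 embryo-only regions (54.1%, exact 95% interval 46.0 to 62.0) and 63 of 225 EB-only regions (28.0%, 22.2 to 34.4). The 5' UTR held 27 embryo-only regions (17.0%, 11.5 to 23.7), among them those of Marcksl1, Hmga2 and Tpm1, and 9 EB-only regions (4%, 1.85 to 7.46), among them Mt2 and Pabpc4. The 3' UTR held 12 embryo-only regions (7.55%, 3.96 to 12.8) and 33 EB-only regions (14.7%, 10.3 to 19.98), among them Sox2, Tdgf1 and Nanog. Introns held 23 embryo-only regions (14.5%, 9.40 to 20.9) and 104 EB-only regions (46.2%, 39.6 to 53.0). The intervals cover counting error only. Over all peaks of a library, 5' UTRs took 11.97% and 11.2% in embryos and 7.74% and 5.69% in EBs, and 3' UTRs took 8.51% and 10.1% in embryos and 11.5% and 15.4% in EBs. Introns took 25.8% and 24.6% in embryos and 32.7% and 27% in EBs, closer together than in the tissue-only regions. Coding exons took 36.9% and 34.7% in embryos and 28.7% and 36.6% in EBs, so that share overlapped between the tissues.

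**Figure D3:**
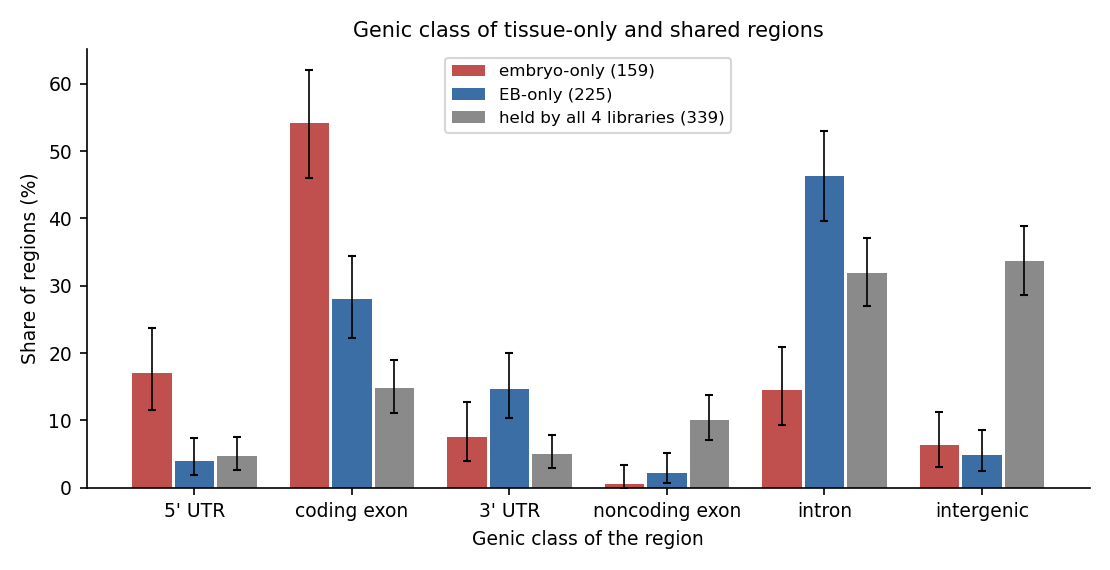
Share of regions (y axis, %) by genic class (x axis) for the 159 embryo-only, 225 EB-only and 339 shared regions, with exact 95% intervals as error bars that cover counting error only. Coding exons hold 54.1% of embryo-only and 28.0% of EB-only regions, and introns hold 14.5% and 46.2%.

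The intronic regions differed in where they lay. The summit of an embryo-only intronic region was a median of 10.0 nt from the nearest exon of the full annotation, against 919.5 nt in the EB-only ones and 571.0 nt in the intronic regions of all 4 libraries. Since the class follows the assigned gene in the basic annotation, some of these summits lay inside such an exon. They were 8 of 23 in the embryo-only, 16 of 104 in the EB-only and 32 of 108 in the shared intronic regions. Of the embryo-only ones, 21 of 23 overlapped such an exon and 2 had their summit more than 1000 nt from one. Of the EB-only ones, 41 of 104 overlapped an exon and 48 lay more than 1000 nt away, as did those of Fkbp9 (1223 nt), Fads2 (1795 nt), Arhgap32 (2075 nt) and Ankrd11 (12682 nt). At least 10 tags in both libraries were held by 3 of the 23 embryo-only and 46 of the 104 EB-only intronic regions. Repeat-masked bases made up most of the region in 7 of 159 embryo-only regions (4.40%) and in 23 of 225 EB-only regions (10.2%). These are descriptions of regions chosen by where peaks were called, and no test was run on them.

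In sequence, the purine words were more frequent in embryo-only than in EB-only coding regions. In the 200 nt around the eCLIP-1 summit, at least 1 of the 4 words occurred in 55 of 78 embryo-only coding windows (70.5%) and in 29 of 58 EB-only coding windows (50%). The coding regions held by all 4 libraries had one in 76.6% of windows around embryo eCLIP-1 summits and in 69.1% around EB eCLIP-1 summits. All coding windows of the same libraries held one in 65.8% in embryo eCLIP-1 and 57.2% in EB eCLIP-1, and the middle 200 nt of 37033 annotated coding exons held one in 41.7%. GCAGCA occurred in 15.4% of embryo-only and 13.8% of EB-only coding windows, against 13.6% of the annotated exons. The printed windows do not follow these shares, with several words in Peg3 among the 4 embryo-only windows and none in Sox11, Marcks or Hba-x, and with words in Hsp90aa1 and Kmt2d among the EB-only windows and none in Polr2a or Rere. A match is a description of the letters and not of a binding site.

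Tissue-only regions were partly in genes that the other tissue also bound elsewhere. Of 149 embryo-only regions in genes, 88 lay in a gene with no EB peak, 27 in a gene with a peak in 1 EB library and 34 in a gene with peaks in both. Of 214 EB-only regions in genes, 163 lay in a gene with no embryo peak, 31 in a gene with a peak in 1 embryo library and 20 in a gene with peaks in both. Nedd4 was of this kind on both sides, with the embryo-only region in exon 11 and an EB-only region in exon 14 that held 5.44 and 2.19. Gpc3, a membrane proteoglycan, held 3 embryo-only regions, in exons 2, 3 and 8 of 8, with 34.3 and 13.5 over the gene. Smarca4 and Sept11 each held 2 embryo-only regions beside peaks in both EB libraries, and Npm1 held 2 EB-only regions beside peaks in both embryo libraries.

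Counted by tissue-only genes, the globin, neuronal, imprinted and pluripotency lists were among those that separated the tissues most plainly. Of 6 globin and erythroid genes with a peak, 3 were embryo-only and 0 EB-only, while of 19 pluripotency genes with a peak 0 were embryo-only and 8 EB-only, beside 5.33% embryo-only and 8.95% EB-only over all genes. Hba-x held 31.4 and 29.2, Hbb-y, another embryonic globin, held 15.3 and 14.04, and Hba-a1, an adult-type alpha globin, held 2.19 and 2.16. Hba-a1 has a near-identical neighbour, Hba-a2, which had a peak in embryo eCLIP-1 alone, so its tags are uncertain. The other 3 members with a peak, Hba-a2, Hbb-bh1 and Nfe2, also had one in embryo eCLIP-1 alone.

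Among the pluripotency genes, Nanog held 17.5 and 17.9 in EBs over the gene, Sox2 15.7 and 9.19, and Tet1, a 5-methylcytosine dioxygenase, 17.5 and 5.69. Tdgf1, a Nodal co-receptor, held 11.5 and 10.1, and Klf2 held 9.06 and 6.13. Dppa5a, Pou5f1 and Tet2 were the other EB-only members, with 1.31 to 7.25 per library. A further 10 had a peak in 1 EB library and in no embryo library, among them Klf4, Esrrb, Fgf4 and L1td1. Jarid2, a Polycomb cofactor, was the only member that embryos also held, with 108.1 and 97.2 in embryos and 60.4 and 58.7 in EBs.

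Tissue-only genes of the neuronal and imprinted lists were embryo-only, although 2 genes of each list had a peak in 1 EB library and in no embryo library (Mark3 and Stmn2, Impact and Zdbf2). Of 12 neuronal genes with a peak, 5 (41.7%) were embryo-only and 0 EB-only, beside 5.33% and 8.95% over all genes. Nefm, a neurofilament subunit, held 15.3 and 23.8, Tuba1a, a tubulin of neurons with near-identical paralogues, held 15.3 and 6.48, and Elavl3, Kif5c and Robo1 held 2.16 to 3.24. Of 11 imprinted genes with a peak, 3 (27.3%) were embryo-only and 0 EB-only. Peg3 held 54.0 and 40.5 over the gene, Peg10, a retrotransposon-derived gene, held 18.3 and 25.4, and Grb10, a growth-restraining adaptor, held 14.6 and 19.99. Igf2 and Nnat are counted under Gm49394 and Blcap, whose models they share. H19, the noncoding RNA next to Igf2, missed the rule through 4 tags in EB eCLIP-2, with 136.6 and 110.2 in embryos and no peak and 1.75 in EBs. Meg3, another imprinted noncoding RNA, did likewise, with 21.9 and 17.3 in embryos and no peak and 2.19 in EBs.

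**Figure D4:**
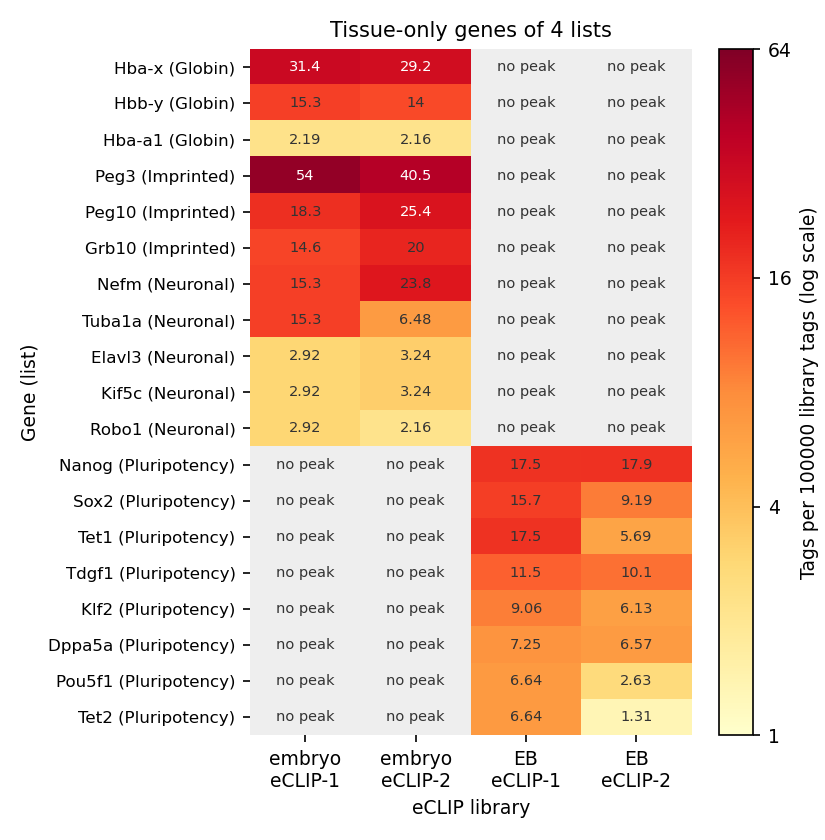
Tags per 100000 library tags over the peaks of a gene, in each eCLIP library (columns, embryo to the left of EB), for the tissue-only genes of the globin, imprinted, neuronal and pluripotency lists (rows); colour is on a log scale and grey marks no peak. The 11 globin, imprinted and neuronal genes hold peaks in both embryo libraries and the 8 pluripotency genes in both EB libraries.

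Lists of other tissues were sparse, and their shares stand beside 5.33% embryo-only and 8.95% EB-only over all genes. Of 5 muscle genes with a peak, Tpm1, a tropomyosin, was embryo-only (20%) with 10.2 and 7.56. Of 15 genes of mesenchyme and matrix with a peak, Vim, Vcan and Foxc1 were embryo-only (20%), with 12.4 and 6.48, 2.19 and 5.40, and 2.19 and 4.86. Sparc, a matrix glycoprotein, was EB-only (6.67%) with 11.5 and 9.63. Of 12 neural progenitor genes with a peak, Sox11 was embryo-only and Vangl2, a planar polarity protein, was EB-only (8.33% each). Vangl2 held 7.85 and 2.63. With a peak in 1 library enough, 9 of the 12 were held in embryo libraries only and 1 in EB libraries only. Over all 2381 genes with a peak, these counts were 687 and 1005. Endothelial genes (2 with a peak, both in EB eCLIP-2 alone) and visceral endoderm genes (1 with a peak) gave no tissue-only member.

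Housekeeping lists held tissue-only genes on both sides. Over all genes with a peak, 5.33% were embryo-only and 8.95% EB-only. Of 72 splicing genes with a peak, 8 (11.1%) were embryo-only, led by the helicase Ddx5 with 16.8 and 17.8 and by Hnrnpul2 with 10.2 and 10.8, and 3 (4.17%) were EB-only, which were Hnrnpk, Ddx17 and Sf3a1. Of 68 chromatin genes, 7 (10.3%) were embryo-only and 3 (4.41%) were EB-only. The former included the remodeller Chd7 with 13.9 and 14.04, the architectural protein Hmga2 with 7.30 and 16.7 and the maintenance methyltransferase Dnmt1 with 15.3 and 10.8. The latter were Trim28, Suz12 and Kdm5b. Of 38 genes of translation and mRNA binding, 1 (2.63%) was embryo-only, Igf2bp1 with 2.92 and 4.86, and 8 (21.1%) were EB-only. Eif4a2, an RNA helicase of initiation, led these EB-only genes with 27.2 and 3.50, and Pabpc4, G3bp1, Btf3 and Larp1 held 1.75 to 4.83. Of 43 cytoskeleton genes, 6 were embryo-only, led by Marcks and by the non-muscle myosin Myh10 with 27.8 and 20.5, and 4 were EB-only, among them the microtubule-associated protein Map4 with 7.85 and 2.63.

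Among the remaining lists, 5 of 42 histone genes (11.9%) were embryo-only and 1 (2.38%) EB-only, beside 5.33% and 8.95% over all genes. Of 56 ribosomal protein genes, 1 (1.79%) was embryo-only and 5 (8.93%) were EB-only, the latter close to the share over all genes. Both lists hold near-identical copies that make the assignment uncertain. H1f0, a replacement linker histone, held 12.4 and 8.10 in embryos. Of 31 cell cycle genes with a peak, 4 (12.9%) were embryo-only, led by the cyclin Ccnd2 with 8.03 and 8.64. A further 2 (6.45%) were EB-only, the cohesin release factor Wapl with 10.3 and 3.94 and the proliferation marker Mki67 with 3.02 and 4.38. The glucose transporter Slc2a3, with 27.2 and 14.4, and the enolase Eno1, with 8.46 and 3.94, were the EB-only genes (33.3%) of the glycolysis list, of 6 with a peak. Of 23 chaperone genes with a peak, Pdia4 was embryo-only and Cct3 EB-only (4.35% each). The lists of long nuclear noncoding RNAs, small nuclear and nucleolar RNAs, mitochondrial transcripts and Hox genes gave no tissue-only member, though 15 of 32 small RNA genes with a peak were held by all 4 libraries.

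Under the gene assignment used, the genes singled out by the study that held a peak did not fall into the tissue-only sets as genes. Nnat, which the study also singled out, is counted under Blcap, an embryo-only gene with 19.7 and 13.5. The transcript of origin is not known there. Nedd4 was held by all 4 libraries, with 31.4 and 42.1 in embryos and 29.0 and 13.1 in EBs, and so was Calr, an endoplasmic reticulum chaperone, with 26.3 and 33.5 in embryos and 20.5 and 14.01 in EBs. Neither passed the test across genes described next (adjusted p = 0.178 for Nedd4 and 0.107 for Calr, edgeR), though the 3' UTR region of Calr passed with library totals (adjusted p = 0.0180) and not with TMM factors (adjusted p = 0.398). Hdgf, a growth factor of the nucleus, had 9.18 in embryo eCLIP-2, none in embryo eCLIP-1, and 17.5 and 11.8 in EBs. Mark3, Ctnnd1 and Fat1 had a peak in 1 library each, with 3 or 4 tags.

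In the 339 regions that all 4 libraries held, levels were higher in embryos as a whole. The tags are those of each library's own called peaks and were not recounted over the merged region. Peaks had a median length of 158 bp in EB eCLIP-2, called with the smaller fragment size, and of 313 to 367 bp in the other eCLIP libraries. The effect of this on the levels and calls was not tested. The median log2 difference, embryo minus EB, was 0.65 over the regions and 0.66 over the 264 genes, with tags scaled to the library totals, and the embryo values lay above both EB values without overlap in 241 regions (71.1%), the EB values above both embryo values in 15 (4.42%). With edgeR's quasi-likelihood test and Benjamini-Hochberg adjustment, 101 regions (29.8%) were higher in embryos and 4 (1.18%) were higher in EBs. Scaled by TMM factors, which centre the difference on these regions, the counts were 15 (4.42%) and 14 (4.13%), and the 15 and 4 of them were called under both scalings. Among genes, the embryo values lay above both EB values in 162 (61.4%) and the EB values above both embryo values in 22 (8.33%), and 23 (8.71%) were higher in embryos and 1 (0.379%) in EBs with library totals, and 9 (3.41%) and 14 (5.30%) with TMM factors. The share of library tags inside peaks, given above, was also higher in embryos, and its part in the shift was not tested. Of the 339 regions, 197 overlapped an input peak, as did 77 of the 101 called higher in embryos, and the median difference was 0.67 in regions with an input peak and 0.55 in those without. The spread between libraries was smaller than the shift, with a median absolute log2 difference of 0.28 between the embryo libraries and 0.37 between the EB libraries. The labels do not say how the libraries of a tissue relate, and the study describes them as separate pools of embryos and biological replicates of EBs.

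**Figure D5:**
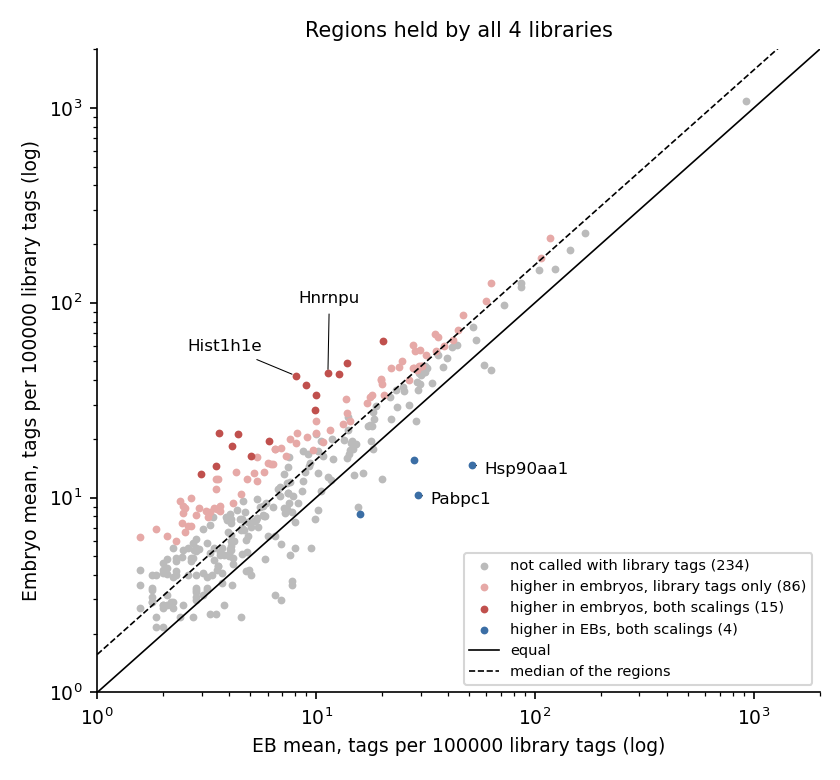
Mean tags per 100000 library tags in embryos (y axis) and in EBs (x axis), both on log scales, for the 339 regions held by all 4 libraries; each point is a region, the solid line marks equal levels and the dashed line the median log2 difference of 0.65. Colours mark the edgeR calls with library totals, 15 of 101 embryo calls and all 4 EB calls of which also passed with TMM factors.

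Among the regions with the smallest p of those higher in embryos were ones in Hist1h1e, in Hnrnpu, in Fam163b and between genes. Hist1h1e, a linker histone, held 46.0 and 38.4 in embryos and 7.85 and 8.32 in EBs at chr13:23621766-23622695. Its log2 difference was 2.36 ± 0.23 (SE, adjusted p = 0.000863, edgeR), or 1.71 above the median of the regions, and it passed with TMM factors and with DESeq2 as well. It lay in the 5' UTR and overlapped a peak of the library labelled EB input. Hnrnpu, an RNA-binding protein of the nuclear scaffold, had 44.5 and 42.1 in embryos and 13.9 and 8.76 in EBs in a region classed as intronic, a log2 difference of 1.97 ± 0.24 (adjusted p = 0.00135, edgeR). The summit of that region lay inside an exon of the full annotation. This region overlapped no input peak. Of the 8 regions with the smallest p, Hist1h1e alone passed with DESeq2, where Hnrnpu had an adjusted p of 0.150 and Fam163b of 0.494, and the intergenic region at chr10 named below missed the threshold with TMM factors as well (adjusted p = 0.0593). The first exon of Hnrnpu, printed above, had 43.8 and 31.9 in embryos and 14.5 and 3.50 in EBs, and overlapped a peak of the library labelled EB input. The intron of Fam163b, where both inputs had a peak, held 35.1 and 31.9 in embryos and 10.3 and 9.63 in EBs. A further 4 regions lay in no annotated gene, at chr1:56782035-56782565, chr4:78773540-78774229, chr8:3754381-3754909 and chr10:82954721-82955620, and each overlapped a peak of both inputs. The first of these held 62.8 and 64.3 in embryos and 19.3 and 21.01 in EBs.

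The 4 regions higher in EBs lay in Pabpc1, Hsp90aa1 and Rnu3a. Pabpc1, the cytoplasmic poly(A)-binding protein, held 12.4 and 8.10 in embryos and 33.2 and 25.4 in EBs in its 3' UTR, at chr15:36595660-36596281, a log2 difference of -1.53 ± 0.28 (adjusted p = 0.00932, edgeR), or -2.18 against the median. It passed with DESeq2 and missed the threshold once regions with an input peak were left out (adjusted p = 0.0926). Its 5' UTR region held 14.6 and 16.7 in embryos and 32.0 and 24.1 in EBs. Hsp90aa1, the stress-inducible HSP90, held 23.4 and 5.94 in embryos and 67.0 and 36.3 in EBs in exon 8 of 11, a log2 difference of -1.89 ± 0.48 (adjusted p = 0.0204, edgeR). It was -3.09 without embryo eCLIP-1 and -1.12 without embryo eCLIP-2, and the call was lost with DESeq2 (adjusted p = 0.150). In its exon 2 lay the EB-only region printed above, with 16.3 and 10.5. Rnu3a, a copy of the U3 small nucleolar RNA, held 9.49 and 7.02 in embryos and 16.9 and 14.9 in EBs. This region and the 5' UTR of Pabpc1 overlapped a peak of both inputs, and both lost their calls with DESeq2 and with either embryo library left out, as the 5' UTR did without EB eCLIP-1. Fn1 (fibronectin), Eif2s2 (a subunit of initiation factor eIF2), Snord13 and AC115970.1 came next and missed the threshold with library totals (adjusted p = 0.0538 to 0.0830, edgeR).

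Summed over the peaks of a gene, chromatin remodellers stood among the genes higher in embryos. These sums include tissue-only regions, to which the other tissue added no tags because it held no called peak there. The tests across genes were not repeated without those regions. In Chd4 the embryo-only region made up 38.0 and 23.8 of the embryo values below. Smarca4 and Sept11 held 2 embryo-only regions each, and an embryo-only region lay in Smarcc1 as well. Smarca4, the BRG1 ATPase of the BAF complex, held 32.1 and 28.6 in embryos and 5.44 and 6.57 in EBs, a log2 difference of 2.31 ± 0.31. Smarcc1, a core BAF subunit, held 59.2 and 42.1 in embryos and 6.64 and 10.9 in EBs, a log2 difference of 2.48 ± 0.33. Chd4 held 75.9 and 44.8 in embryos and 3.62 and 8.32 in EBs, a log2 difference of 3.26 ± 0.44. In each of these genes the groups did not overlap and the adjusted p was 0.0158 (edgeR), as it was for Hist1h1e, Sept11 and Top1. Sept11, a septin, held 16.1 and 17.3 in embryos and 1.81 and 1.31 in EBs. Top1, DNA topoisomerase I, held 18.3 and 18.4 in embryos and 2.42 and 1.75 in EBs. Each of these 6 genes also passed with TMM factors, while Smarca4, Sept11 and Top1 lost their calls with DESeq2 and with either embryo library left out (adjusted p = 0.0631 to 0.106). The difference in Chd4 was 4.01 without EB eCLIP-2. Fam163b passed with library totals (adjusted p = 0.0180, edgeR) and missed the threshold with TMM factors (adjusted p = 0.0525).

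Pabpc1 was the gene higher in EBs with library totals, with 27.02 and 24.8 in embryos and 76.7 and 57.3 in EBs, a log2 difference of -1.37 ± 0.23 (adjusted p = 0.0273, edgeR). It passed with DESeq2 and missed the threshold with either embryo library left out (adjusted p = 0.0765 and 0.0875). Npm1, or nucleophosmin, held 13.1 and 8.10 in embryos and 24.2 and 32.4 in EBs, a log2 difference of -1.44 ± 0.35 that missed the threshold (adjusted p = 0.0527, edgeR) and passed it with TMM factors (adjusted p = 0.0146). Hsp90aa1 held 23.4 and 5.94 in embryos and 83.4 and 46.8 in EBs, and Rere, a transcriptional corepressor, held 8.03 and 6.48 in embryos and 16.3 and 19.3 in EBs, each with an adjusted p of 0.0589 (edgeR). Fn1, Eif2s2 and Rtn4 followed with log2 differences of -1.37, -1.06 and -1.30. For these 7 genes both EB values lay above both embryo values, and all 7 passed the threshold with TMM factors. The sums of Pabpc1, Npm1 and Hsp90aa1 include EB-only regions, and that of Rere includes regions of both tissue-only sets.

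By list, median differences ran from 0.03 in ribosomal protein genes to 1.23 in cytoskeleton genes, among the lists with at least 8 genes tested. The gene sums behind these medians and calls include tissue-only regions, to which the other tissue added no tags. Embryo-only regions lay in Tpr, with 5.11 and 7.56, and in Caprin1, with 8.03 and 4.32. The 8 genes tested from the cytoskeleton and centrosome list ran from 0.12 to 2.35. They included 2 that were higher in embryos, Actb (beta-actin) and Tpr, a nuclear pore protein that the list includes, and neither passed with TMM factors. The 18 chromatin genes held by all 4 libraries had a median log2 difference of 1.15, from -1.44 in Npm1 to 3.26 in Chd4, and 3 were higher in embryos and 0 in EBs with library totals, beside a median of 0.66 and 8.71% over the 264 genes, while with TMM factors 3 were higher in embryos and 3 in EBs. The median was 0.89 in 10 splicing genes and 0.82 in 14 histone genes, with 1 gene higher in embryos in each list. It was 0.35 in 13 genes of translation and mRNA binding, of which Caprin1, an mRNA-binding protein, was higher in embryos and Pabpc1 higher in EBs. It was 0.03 in 11 ribosomal protein genes, from -1.27 to 0.48, and none of them passed the threshold with library totals, while 1 was higher in EBs with TMM factors. It was 0.19 in 15 small nuclear and nucleolar RNA genes, of which Scarna2 was higher in embryos with library totals and missed the threshold with TMM factors (adjusted p = 0.128, edgeR). Hsp90ab1, the constitutive HSP90, overlapped between the tissues, with 154.8 and 144.2 in embryos and 157.0 and 89.7 in EBs. Gnas held 38.7 and 13.5 in embryos and 5.44 and 1.75 in EBs over the gene (log2 difference 2.89 ± 0.73, adjusted p = 0.0542, edgeR), while its 3' UTR region alone, with 29.2 and 13.5 in embryos and 5.44 and 1.75 in EBs, passed (adjusted p = 0.0111).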

How the data were processed

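Mouse embryos at prenatal day 9.5 and 9-day-old EBs were each represented by 2 STRAP eCLIP libraries and 1 input, assigned from the labels. For demultiplexing the authors used bcl2fastq 2.18.0.12 and for trimming cutadapt. Reads matching repeats were discarded, and STAR 2.5.2b, run so that a read may have several placements, aligned the others to GRCm38 (mm10). After duplicate removal, MACS 1.4.2 was applied library by library (p cutoff 1e-05). The methods list a control option, but the deposited headers name none, so the authors' p-values and folds compare a peak with its own library. The deposited tags are a count of reads in a peak, not scaled between libraries. The deposited score is a log-scaled p-value of the caller, in which a higher score is a smaller p. The fold, also deposited as the caller gave it, is a ratio within a single library.

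Only peaks above 5-fold entered. Each summit was assigned to a gene, protein-coding genes before others and then by the longest transcript, and to a genic class, with UTRs (5' first) before coding exons, then other exons, then introns. Exon numbers are those of a transcript that holds the summit, and distances from introns to exons used the full Gencode M21 annotation. The summit of a region is that of its peak with the most tags, and the region and its tags may extend past that exon. Sequence came from RefSeq's copy of GRCm38, and 10653 of 10653 peak ends fell inside its chromosomes. Features held by all 4 libraries were tested with edgeR 4.0.16 (quasi-likelihood, two-sided, threshold 0.05, tags against the library totals in the headers, no scaling factor). The SE printed with a log2 difference was derived as its absolute value divided by the square root of the F statistic. It is not an output of the fit. TMM factors, DESeq2 1.42.0, a replicate block, stricter and looser filters and each library left out were tried as alternatives. On simulated data, 254 of 300 changes of 4-fold were recovered over the 339 regions and 233 of 300 over the 264 genes. False calls numbered 12 over regions and 11 over genes. The simulation had as many rises as falls, a common dispersion and no shift between the tissues, so it does not cover the shift seen in these data. Python 3.11.15 and R 4.3.3 were used. Intervals are exact Clopper-Pearson ones at 95%.

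Named were the 12 highest regions of each tissue-only set by the lower library, the 8 smallest p in each direction for regions and genes, up to 5 tissue-only genes of each list, the genes singled out by the study and the coding summit windows of the highest regions. Other named genes, among them H19, Meg3, Gpc3, Hsp90ab1, Caprin1, Scarna2, Actb, Tpr, Gnas, the pluripotency genes past the first 5 and those of the inputs, were chosen after their values were seen. The members, the 23 gene lists and the tests were chosen with earlier results of these data known, and no list is independent support for its direction. Of the inputs only peak positions and tags were used. Some items that the rule would name are not reported here.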

Additional observations from a re-analysis of the deposited data

How the results depend on the processing

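The counts of tissue-only regions and genes changed with the demand on a peak and with the libraries used. With a deposited score of at least 100, 51 regions and 41 genes were embryo-only, 56 and 53 were EB-only, and 213 and 112 were held by all 4 libraries. With at least 10 tags per peak the counts were 89 and 70 embryo-only, 74 and 68 EB-only, and 154 and 88 held by all 4. Without the fold filter, with a larger shared part asked of overlapping peaks, with other gene assignment or with EB eCLIP-2 peaks widened, every count stayed within 1.5 times its value. Leaving out regions or genes with an input peak left 142 regions and 133 genes held by all 4.

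With 1 library left out, and its tissue held by the remaining one, embryo-only regions ranged from 195 to 859 and genes from 160 to 456, EB-only regions from 264 to 1270 and genes from 264 to 758, regions held by all libraries left from 377 to 419 and genes from 297 to 342. The highest embryo-only counts came without embryo eCLIP-2 and the highest EB-only counts without EB eCLIP-1.

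Calls between the tissues depended on the scaling. With TMM factors 15 regions were higher in embryos and 14 in EBs, and 9 and 14 genes. With DESeq2, 1 region was higher in embryos and 3 in EBs, and 5 and 6 genes. Without input peaks, 18 regions were higher in embryos and 1 in EBs, and 2 genes were higher in EBs. With at least 5 tags in every library, 2 genes were higher in EBs. With 1 library left out, 52 to 142 regions and 3 to 79 genes were higher in embryos, and 2 to 8 regions and 0 to 8 genes in EBs, the lone library of a tissue being assumed to vary like the other. The fewest regions in embryos (52) came without embryo eCLIP-1, the fewest genes (3) likewise, and the most (142 and 79) without EB eCLIP-1, while 8 regions and 8 genes in EBs came without EB eCLIP-2. The same-numbered libraries share only a number, and their deviations correlated at 0.15 over regions and 0.05 over genes. With the replicate block, 123 regions and 46 genes were higher in embryos and 6 and 3 in EBs. The named log2 differences changed direction under none of the alternatives run, while 35 of these values lost the threshold and 29 gained it. With a median of 5 or 6 tags in the lower library, a tissue-only region is near the limit of detection, and at this depth no peak does not mean no binding. The causes of these changes were not tested.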
